A study of Mus musculus with 7 samples.

Results

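Of the 7 mtDNA sequencing libraries of the series, 4 are described here: the library of the Deletor mouse, which carries a mutant Twinkle helicase and served as the positive control for rearranged mtDNA, and the libraries of 3 control hearts. They were chosen by their sample labels alone. The Deletor library came from the skeletal muscle of 1 C57BL/6J animal aged 20 weeks, and the labels describe its Twinkle as carrying an in-frame duplication of amino acids 353 to 365. The labels and the study's text differ on the mutation and on the age of this animal. Total DNA was used for this library. The control libraries came from the hearts of 3 C57BL/6N animals aged 5 weeks that were homozygous for loxP-flanked Mfn1 and Mfn2 and lacked Cre. Their DNA was taken from isolated mitochondria. Genotype, tissue, age, strain and DNA preparation all differed between the Deletor mouse and the controls and cannot be told apart, so no test of genotype was made and all contrasts below describe these libraries. Read positions on the mtDNA carry no marker of muscle or heart, and Twinkle is encoded in the nucleus, so neither tissue nor genotype could be checked from the lists.

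The mitochondrial genome of the mouse is a circle that encodes subunits of the respiratory chain, the mitochondrial rRNAs and the tRNAs needed to translate them. Twinkle unwinds this circle ahead of the replication machinery. In the strand-displacement account of replication, the heavy strand is started in the control region, and the light strand is started at a second origin that is exposed once the first strand has advanced far around the circle. The origins divide the genes into a minor arc, with both rRNA genes, ND1 and ND2, and a major arc, with the genes from COX1 to CYTB. Mutations of Twinkle are a known cause of multiple mtDNA deletions in muscle. The authors wrote that this mouse had been described as a deletor, but that the pattern they saw would fit abundant mtDNA duplications. Whether the pairs described below stem from deletions or duplications was not tested.

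Read pairs were listed by the authors when both reads mapped to the mtDNA but not as a proper pair. Pairs that shared both positions and both strands were treated as copies of 1 pair. This gave 1171 unique pairs of 1284 in the Deletor library and 144 of 146, 215 of 216 and 193 of 195 in the controls. All 4 libraries were read on 1 lane. The depth of each library was not used here, so pairs were compared as shares of the listed pairs and not as rates per mtDNA molecule. Each read end, here the leftmost mapped base, was placed in a gene, rRNA gene, tRNA gene, the light-strand origin or the control region with the RefSeq mouse mtDNA annotation (GRCm38.p6), and positions past the mtDNA length of 16299 bp were placed at its start. The authors mapped to another mouse mtDNA sequence, and its numbering was taken to be the same. Boundaries between features may therefore be off by some bases. The control region took up 5.38% of the mtDNA, the minor arc 31.7%, the major arc 62.8% and the light-strand origin 0.196%. Intervals in brackets are Wilson 95% intervals, which cover the counting error of 1 library only and not variation between animals. Copies made by PCR carried no molecular identifier, so even this counting error is approximate.

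Same-strand pairs 60 bp apart made up most of the Deletor list, and all other classes were compared without them. Of the 243 other unique Deletor pairs, 163 were inward pairs over 600 bp, with the forward read before the reverse read, which is 67.1% (60.9 to 72.7). The same class held 15 of 88 such pairs in control 1, or 17.0%, 11 of 126 in control 2, or 8.73%, and 5 of 135 in control 3, or 3.70%. The control mean was 9.83% ± 6.74 (SD, n = 3), and the Deletor share without pairs 60 bp apart lay far above the highest control. The size of this gap depended on leaving those pairs out. They made up 79.2% of the Deletor list and 38.9%, 41.4% and 30.1% of the control lists. Of all unique pairs, the inward class was 13.9% in the Deletor library and 10.4%, 5.12% and 2.59% in controls 1 to 3. Pairs over 600 bp of any strand were 15.2% against 21.5%, 14.9% and 11.4%. No inward Deletor pair over 600 bp was of 1000 bp or less, whereas 5, 4 and 2 control pairs were. The plot of all insert sizes shows this as a dense inward band in the Deletor library that was thin in every control.

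**Figure D1:**
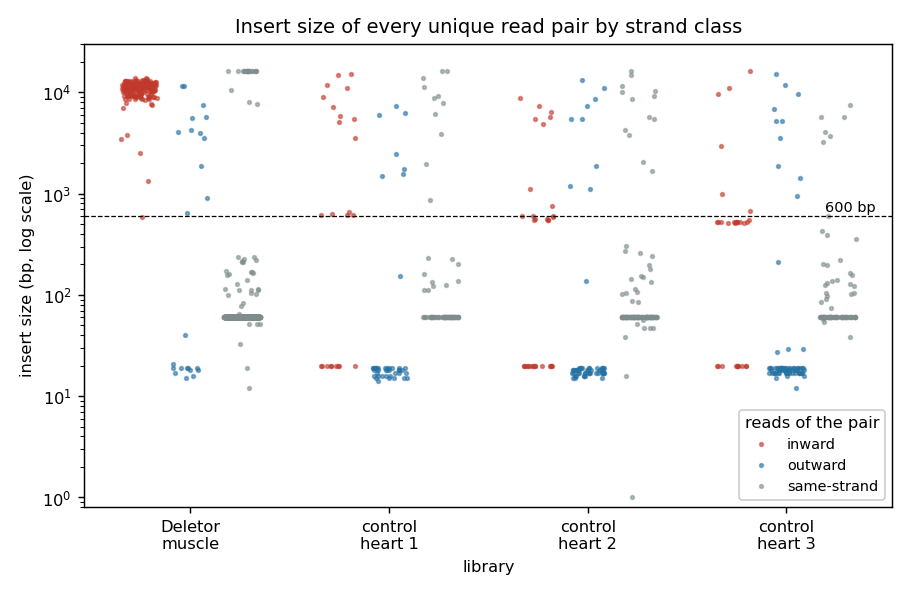
Insert size (bp, log scale) of each unique read pair, 1 point per pair, for the Deletor muscle library and 3 control heart libraries, coloured by strand class, with a dashed line at 600 bp. The 158 inward Deletor pairs over 7000 and up to 14000 bp form the band at the upper left, where the controls have 4, 2 and 2 pairs.

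The inward Deletor pairs began mostly in the minor arc and ended mostly in the last genes of the major arc. A forward end in the minor arc was paired with a reverse end in the major arc in 123 of 163 pairs, which is 75.5% (68.3 to 81.4). In the controls this was 6 of 15, 4 of 11 and 2 of 5 pairs, a mean of 38.8% ± 2.10 (SD, n = 3). The Wilson intervals of these 3 shares, 19.8 to 64.3, 15.2 to 64.6 and 11.8 to 76.9, were far wider than this SD. A forward end in the minor arc was paired with a reverse end in the control region in 24 Deletor pairs, or 14.7% (10.1 to 21.0). In the controls this was 0 of 15, 0 of 11 and 0 of 5 pairs. Their Wilson intervals reach up to 20.4%, 25.9% and 43.4%, so these short lists cannot show this join to be rarer there. Both ends lay in the major arc in 10 Deletor pairs, or 6.13%, against 8 of 15, 4 of 11 and 1 of 5 control pairs. The same joins were also counted among longer pairs alone. Among inward pairs over 7000 and up to 14000 bp, 123 of 158 Deletor pairs, or 77.8%, and 7 of 8 control pairs ran from the minor to the major arc. The mean of the 3 controls was then 83.3% ± 28.9 (SD, n = 3), so within this size range no higher share was seen in the Deletor library. The controls had only 4, 2 and 2 pairs there. Median insert size within the range was 11154.5 bp in the Deletor pairs and 9340.5 bp in the control pairs. Whether the contrast in joins moved with pair size was not tested.

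**Figure D2:**
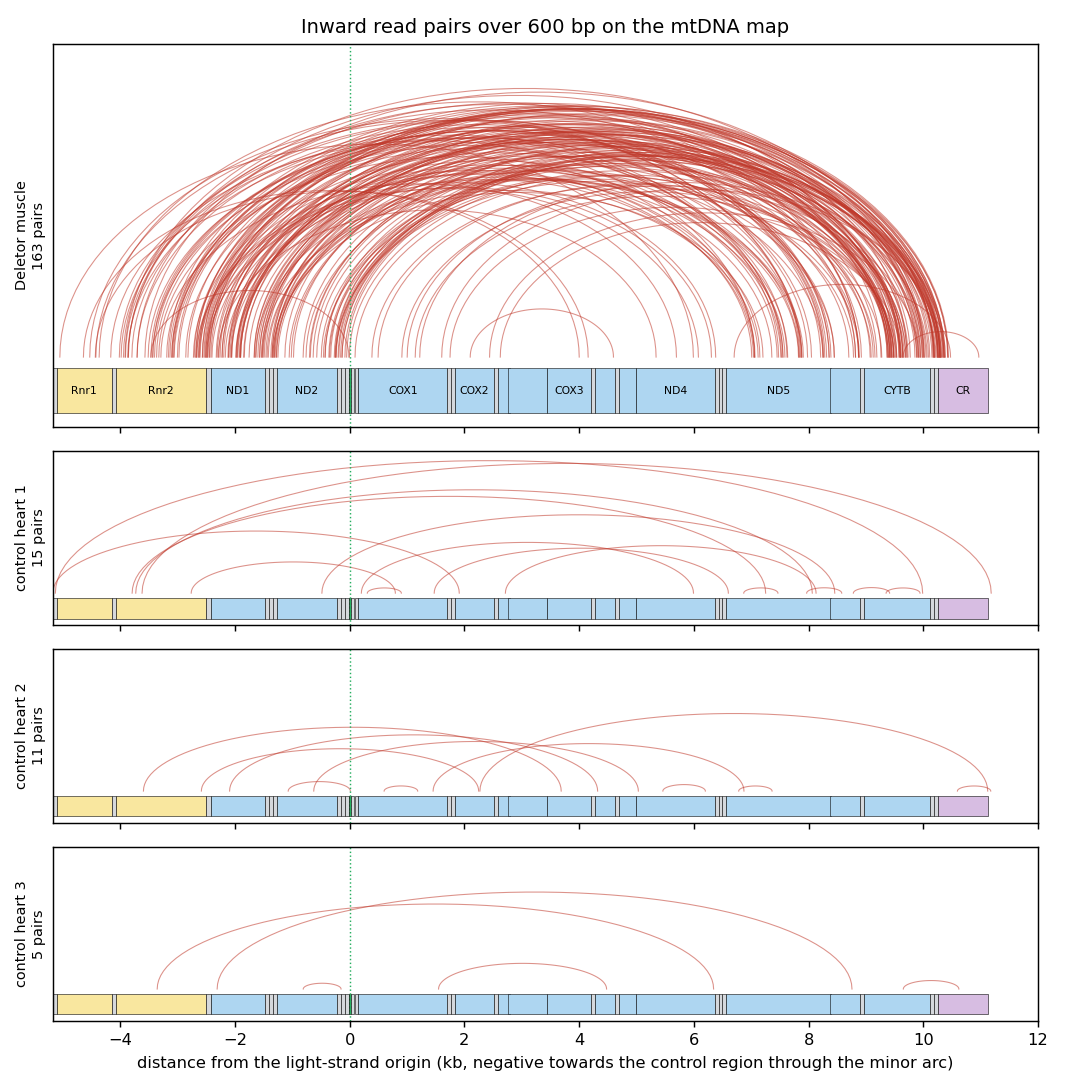
Each arc joins the forward and reverse read ends of 1 inward pair over 600 bp, plotted by distance from the light-strand origin (kb, dotted line) for the Deletor muscle library (163 pairs) and control hearts 1 to 3 (15, 11 and 5 pairs). The strip gives rRNA genes in yellow, protein genes in blue, tRNA genes in grey and the control region (CR) in purple, arc height is proportional to span, and an arc that ends past the strip has a read placed past the mtDNA length. The Deletor arcs leave mainly from Rnr2, ND1 and ND2 and land mainly in ND5, CYTB and the control region.

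The forward ends of the Deletor pairs were led by the minor arc. The gene of the large-subunit rRNA, mt-Rnr2, held 49 of 163 forward ends, ND1 held 43 and ND2 held 23. ND1 and ND2 encode membrane subunits of complex I. The gene of the small-subunit rRNA, mt-Rnr1, and COX1, the catalytic subunit of cytochrome c oxidase, held 7 each. In the controls mt-Rnr2 held 10.8% ± 2.23 (SD, n = 3) of all inward read ends, against 15.0% in the Deletor library, and ND1 held 4.85% ± 5.01 against 13.2%. COX1 ran the other way, with 2.15% of the Deletor ends and 13.4% ± 3.34 (SD, n = 3) of the control ends. ND2 showed no such contrast, with 7.06% of the Deletor ends and 7.47% ± 3.62 (SD, n = 3) of the control ends. Not all of these contrasts were seen within a narrower size range. Among pairs over 7000 and up to 14000 bp, COX1 held 7 of 316 Deletor ends and 0 of 16 control ends, and mt-Rnr2 held 15.2% of the Deletor ends and 4 of 16 control ends, the opposite direction. ND1 then held 13.6% of the Deletor ends and 1 of 16 control ends. The median forward position of the Deletor pairs was 3195, in ND1, with quartiles of 2459 and 4177. Forward ends were spread rather than stacked on 1 site. The fullest window of 500 bp, from 2501 to 3000 across the end of mt-Rnr2 and the start of ND1, held 28 forward ends, and the fullest window of 100 bp held 9.

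The reverse ends of the Deletor pairs lay mainly in the last genes before the control region. CYTB, the mtDNA-encoded subunit of complex III, held 66 of 163 Deletor reverse ends, ND5 held 37, the control region 28 and ND6 10, the last of these being the one protein gene on the light strand. ND5 and ND6 also encode complex I subunits. TrnP, the tRNA gene that borders the control region, held 8. CYTB took 20.6% of all inward read ends in the Deletor library and 7.78% ± 6.94 (SD, n = 3) in the controls, and ND5 took 11.7% and 12.3% ± 11.7. The spread between the 3 controls, of 5 to 15 pairs each, was thus as wide as the ND5 share itself. The control region took 8.59% of the Deletor ends and 6.36% ± 5.53 (SD, n = 3) of the control ends. That Deletor share lay within the control range of 0% to 10%. Among pairs over 7000 and up to 14000 bp, CYTB held 65 of 158 Deletor reverse ends and 0 of 8 control reverse ends. Sizes still differed within this range, with a median insert size of 11154.5 bp in the Deletor pairs and 9340.5 bp in the control pairs. Whether the reverse ends moved with this size difference was not tested. The median reverse position in the Deletor library was 14661, in CYTB, with quartiles of 13432.5 and 15253, about as wide as those of the forward ends. A window of 100 bp from 15401 to 15500, across TrnP and the edge of the control region, held 17 reverse ends, or 10.4%, and no control reverse end. Of the 28 Deletor reverse ends in the control region, 11 lay within its first 50 bp. A fragment of this library reached some distance past the read itself, so the gene that holds a read end need not be the gene that holds the break.

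The joins most often seen in the Deletor library linked the genes that led these counts. ND1 was joined with CYTB in 24 pairs, or 14.7%, mt-Rnr2 with ND5 in 20, or 12.3%, mt-Rnr2 with CYTB in 14, or 8.59%, and ND2 with CYTB in 10, or 6.13%. The join of ND1 with ND5 came next with 8 pairs, or 4.91%. Joins of ND2 and of ND1 with the control region followed, with 7 and 6 pairs. The join of mt-Rnr2 with ND5 was also the one join seen more than once in a control library, with 2 pairs in control 1. These 2 pairs ran from 1383 to 12427 and from 1446 to 13240. No control pair of this class was identical to a Deletor pair, and 0 of 15, 0 of 11 and 1 of 5 control pairs had both ends within 100 bp of a Deletor pair. Within the Deletor pairs over 7000 and up to 14000 bp, forward and reverse positions rose together, with Pearson's r = 0.455 and Spearman's rho = 0.399 over 158 pairs of 1 library. This value is a description, since the size range itself ties the ends of a pair to each other.

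The genes that lay whole between the reads followed from these ends. ATP6, a subunit of the ATP synthase, lay between the reads in 160 of 163 Deletor pairs, or 98.2%, the highest count of any protein gene. ATP8, the other mtDNA-encoded ATP synthase subunit, followed with 159 pairs, COX3 with 158, and COX2, ND3 and ND4L with 157 each. ND4 lay between the reads in 152 pairs, or 93.3%, and COX1 in 149, or 91.4%. The shares fell towards both ends of the genome. ND2 was held in 116 pairs, or 71.2%, ND1 in 61, or 37.4%, and mt-Rnr2 in 7. On the other side, ND5 was held in 114 pairs, or 69.9%, ND6 in 105, or 64.4%, and CYTB in 38, or 23.3%. mt-Rnr1 and the control region were held whole in 0 of 163 pairs. An inward pair could hold the whole control region only with its reverse read past the mtDNA length. The stretch between the reads took in part but not all of CYTB in 67 pairs, of mt-Rnr2 in 47, of ND1 in 44 and of ND5 in 38, the highest such counts of any gene.

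In the controls most of these genes lay between the reads of smaller shares of pairs. ATP6 was held in 52.9% ± 7.28 of control pairs, COX1 in 38.8% ± 2.10, ND4 in 28.3% ± 15.9, ND5 in 16.4% ± 6.30, CYTB in 5.25% ± 4.71 and ND1 in 26.1% ± 12.1 (SD, n = 3 each). ND1 was the exception among the protein genes, as the Deletor share of 37.4% lay inside the control range. The light-strand origin lay whole between the reads of 147 Deletor pairs, or 90.2% (84.7 to 93.9), and of 41.0% ± 5.23 (SD, n = 3) of control pairs. Among pairs over 7000 and up to 14000 bp, a range within which sizes still differed, the origin was held in 93.0% of Deletor pairs and in 7 of 8 control pairs. An inward pair that spans more of the numbered sequence than it leaves out must cover its middle. High shares of genes there are thus in part tied to pair size. How far the shares from COX2 to ND4 moved with size or with place was not tested.

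**Figure D3:**
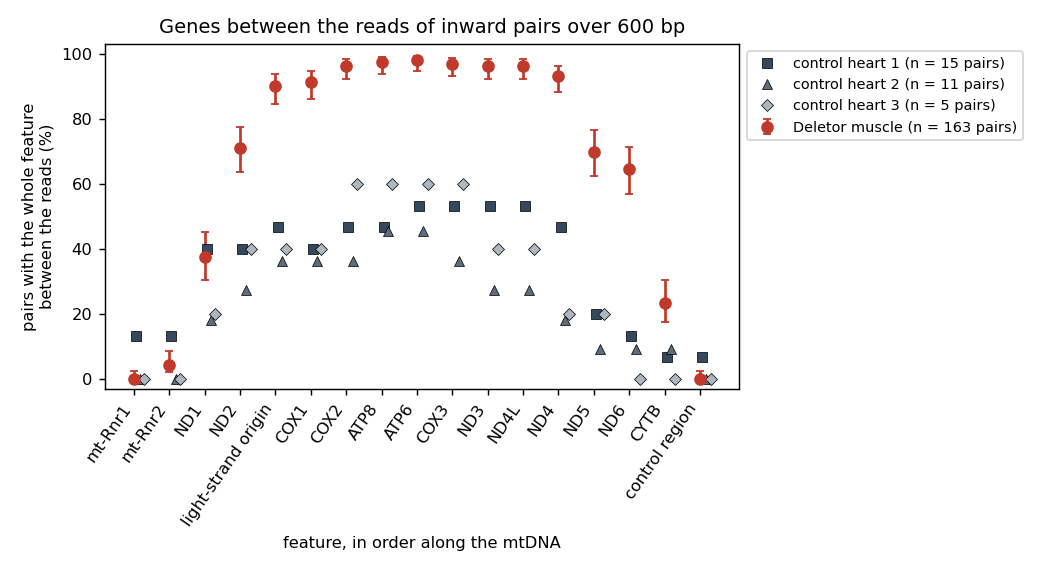
Share of inward pairs over 600 bp (%) with the whole feature between the reads, for each rRNA gene, protein gene, the light-strand origin and the control region in order along the mtDNA. Red points are the Deletor muscle library with Wilson 95% intervals and grey symbols are the single control heart libraries. The Deletor share exceeds 90% from the light-strand origin to ND4, and it reaches 0 of 163 pairs at mt-Rnr1 and the control region. The control region can be held whole only by a pair with a read past the mtDNA length.

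All 158 Deletor pairs over 7000 and up to 14000 bp held the stretch from 7634 in COX2 to 9176 in COX3 between their reads. An inward pair that spans more of the numbered sequence than it leaves out must cover its middle. Most of these pairs did so, as the lower quartile of their insert sizes was 9968.75 bp. Their shared middle stretch thus followed in part from pair size and the numbering. How far it also followed from where the breaks lay was not tested. The 158 pairs all left the same stretch of 829 bp outside, from 15613 in the control region through the numbering start to 142 in mt-Rnr1. This stretch holds most of the control region, the site of heavy-strand initiation. Inward pairs were defined along the numbering. The sequence between their reads could thus cross the numbering start only with a read past the mtDNA length. That the numbering start lay outside all 158 pairs therefore follows largely from how the class was defined. In these pairs the part of the circle not between the reads had a median length of 5184.5 bp, from 2384 to 8839 bp. In the 8 control pairs of this size range it had a median of 6998.5 bp, from 4525 to 9234 bp. The median reverse position was 14660.5 in the Deletor pairs and 12833.5 in the control pairs. Of the 8 control pairs, 2 ended in ND6, 2 in ND5 and 1 each in COX2, COX3, ND4 and the control region, and none ended in CYTB.

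The other orientations over 600 bp were few in the Deletor library. It held 12 outward pairs, with the reverse read first, against 7, 9 and 10 in the controls, and 3 same-strand pairs against 9, 12 and 7. The outward count was thus close to those of the much shorter control lists, and the same-strand count was below all 3. Of the 24 Deletor outward read ends 12 fell in the minor arc and 11 in the major arc. In the controls 28.8% ± 1.13 and 69.6% ± 3.96 (SD, n = 3) of the outward ends fell there. In 5 of the 12 Deletor outward pairs a read lay past the mtDNA length, and placing it at the start turned the pair inward. The other 7 pairs had 5 of 14 ends in the minor arc, or 35.7%, so the higher minor-arc share of the Deletor outward ends rested largely on those 5 pairs. With these the Deletor library held 168 inward pairs over 600 bp, and the controls 14, 10 and 5. The 3 same-strand Deletor pairs joined COX3 with mt-Rnr2, COX3 with TrnV and ND2 with CYTB.

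Same-strand pairs 60 bp apart numbered 928 in the Deletor library and 56, 89 and 58 in the controls. Their read ends were spread over nearly the whole mtDNA. Of 82 windows of 200 bp, 3 held no Deletor pair of this class, and the median window held 10. ND4, a complex I subunit, held the most Deletor ends, 263 of 1856, followed by the control region with 193, ND5 with 180, mt-Rnr2 with 144 and ND2 with 132. ND4 took 14.2% of the Deletor ends and 13.9% ± 2.03 (SD, n = 3) of the control ends, for 8.41% of the mtDNA length. The control region took 10.4% and 11.6% ± 1.16 for 5.38% of the length. Both features were thus filled beyond their length to a like degree in the Deletor and control libraries. The fullest window, 15401 to 15600 across TrnP and the control region, held 58 Deletor pairs, or 6.25%, and 2, 8 and 5 control pairs, which is 7.39% of the control pairs summed. This window includes the stretch that was fullest in reverse ends of inward pairs.

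Some features differed between the libraries in this class. COX2 took 5.82% of the Deletor ends and 10.7% ± 0.804 (SD, n = 3) of the control ends. mt-Rnr1 took 4.74% of the Deletor ends, near its share of the length of 5.86%, and 0.562% ± 0.973 (SD, n = 3) of the control ends, where 3 ends of 406 fell. ND2 took 7.11% and 12.4% ± 6.67, and CYTB 5.23% and 8.46% ± 6.31, both with Deletor shares within the control range. Each control holds few pairs of this class, and both ends of a pair lie close together, so the ends are not independent counts. By arc, the minor arc took 27.3% of the Deletor ends and 27.6% ± 11.9 (SD, n = 3) of the control ends, and the major arc 62.3% and 60.8% ± 10.9.

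**Figure D4:**
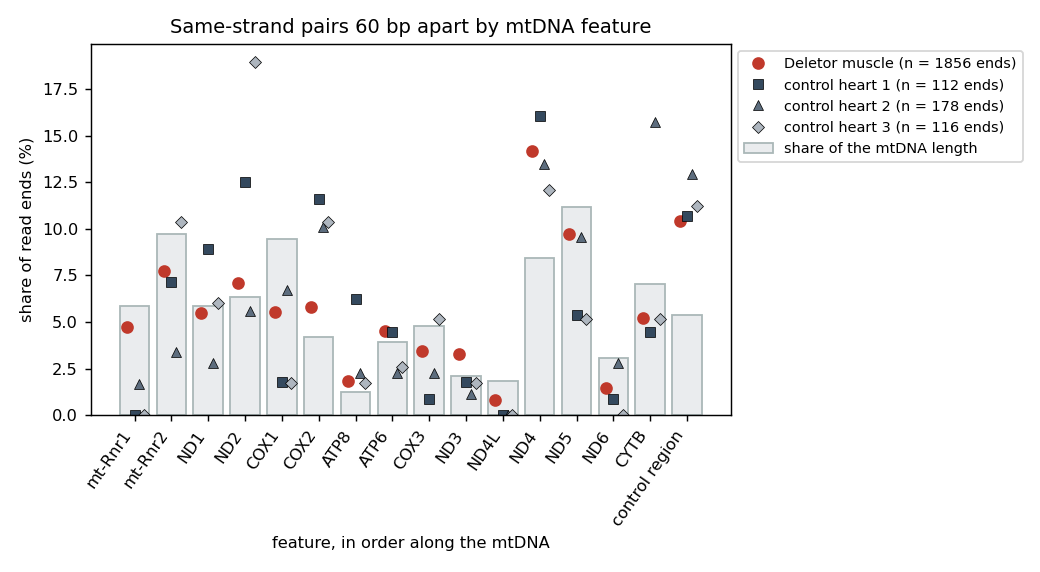
Share of the read ends of same-strand pairs 60 bp apart (%) in each rRNA gene, protein gene and the control region, in order along the mtDNA. Red points are the Deletor muscle library (1856 ends), grey symbols are the 3 control heart libraries, and grey bars give the share of the mtDNA length. ND4 and the control region lie above their bars in all 4 libraries, and COX2 is lower in the Deletor library than in each control.

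The strand of these pairs also differed between the libraries. Both reads lay on the reverse strand in 514 of 928 Deletor pairs, which is 55.4% (52.2 to 58.6). In the controls this was 41 of 56 pairs, or 73.2%, 63 of 89, or 70.8%, and 44 of 58, or 75.9%, a mean of 73.3% ± 2.54 (SD, n = 3). The Deletor share lay below all 3 controls. Counted by the first read of the pair, the reverse strand held 34 of 72 Deletor pairs in mt-Rnr2 and 10 of 13 control pairs summed, and 43 of 88 and 10 of 14 in ND5. In ND1 both were low, with 16 of 49 Deletor pairs and 4 of 12 control pairs. Of the 15 rRNA genes, protein genes and control region with pairs in both, 12 had a lower reverse share in the Deletor library. The other 3 were COX1, with 31 of 52 Deletor and 4 of 8 control pairs, ND3, with 15 of 30 and 1 of 3, and mt-Rnr1, with 25 of 41 and 0 of 1. Whether library preparation or tissue moved with this strand share was not tested.

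**Figure D5:**
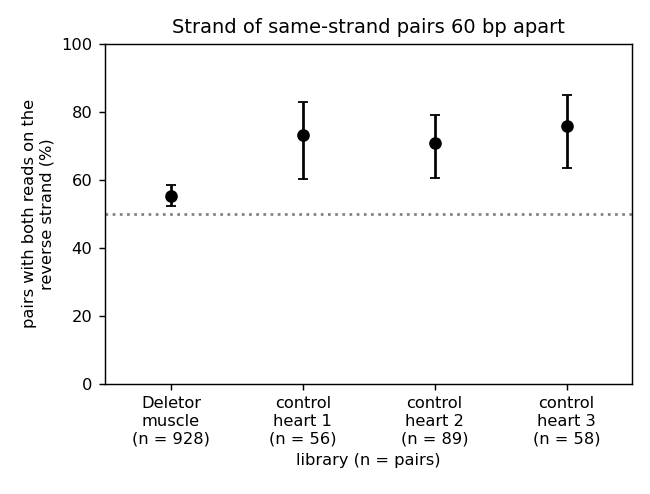
Share of same-strand pairs 60 bp apart with both reads on the reverse strand (%), with Wilson 95% intervals, for the Deletor muscle library and the 3 control heart libraries. The dotted line marks equal use of the strands, and the Deletor value of 55.4% lies below the controls at 70.8% to 75.9%.

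Copies and shared pairs were found almost only in this class. Of the 113 copies removed from the Deletor list, 111 were same-strand pairs 60 bp apart and 2 were inward pairs over 600 bp. The Deletor library shared 9, 10 and 8 identical pairs with controls 1, 2 and 3, all of them same-strand pairs 60 bp apart. They made up 16.1%, 11.2% and 13.8% of the control pairs of this class and 0.970%, 1.08% and 0.862% of the Deletor pairs. No pair over 600 bp was shared, and no pair was shared between controls. The controls held only 56, 89 and 58 pairs of this class against 928 in the Deletor library. Shared pairs were thus less readily seen between 2 controls than with the Deletor library.

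Opposite-strand pairs of at most 20 bp numbered 10 in the Deletor library, fewer than the 44, 62 and 71 in the much shorter control lists. In the Deletor library 12 of their 20 read ends lay in the minor arc, 6 of them in mt-Rnr2. In the controls the minor arc held 39.0% ± 4.02 (SD, n = 3) of the ends of this class, and mt-Rnr2 held 13.6% ± 0.920. With 10 Deletor pairs a difference in place between the libraries was not resolved. Pairs of 16000 bp or more, which reach around nearly the whole numbered sequence, numbered 17 in the Deletor library. All 17 were same-strand pairs of 16239 or 16359 bp, that is, 60 bp short of or beyond the mtDNA length. Of their ends 91.2% lay in the minor arc and 8.82% in the control region, on both sides of the numbering start, and 13 of the 17 joined the class of 60 bp when positions past the length were placed at the start.

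Over all classes, read ends of the Deletor library fell in the minor arc in 31.5%, in the major arc in 58.3% and in the control region in 10.2% of cases. The control means were 32.8% ± 6.30, 59.9% ± 5.74 and 7.07% ± 2.02 (SD, n = 3). Without the class of 60 bp, the minor arc held 47.3% of the Deletor ends and 36.2% ± 2.99 of the control ends, and the major arc 43.0% and 59.1% ± 5.25. The place of Deletor ends by arc thus came close to the controls only with the class of 60 bp included. The longest stretch without any Deletor read end was 203 bp, from 5672 to 5874 in COX1. In the controls the longest such stretches were 423, 437 and 571 bp, and over all 4 libraries together the longest was 98 bp, in the same part of COX1. The controls had 288, 430 and 386 read ends against 2342 in the Deletor library. Fewer ends leave longer gaps, so these lengths do not compare coverage.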

How the data were processed

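Paired mtDNA reads of 1 Deletor muscle and 3 control hearts were analysed, and the 3 dMfn KO libraries were not used here. The authors removed reads mapping to the nuclear genome with bowtie (2.1.0; build NCBIM37 per the labels), mapped the remainder to a mitochondrial sequence with bwa (0.6.2-r126), trimmed and remapped failed reads, and kept pairs not properly paired. The deposited lists give the flag, position, mate position and insert size in bp. Reads were joined by name, and copies of a pair, equal in both positions and both strands, were collapsed. Insert sizes of opposite-strand pairs over 600 bp differed from the distance between positions by 20 bp, the aligned read length. Where genes overlap, the first along the sequence was taken. All 13 protein genes, both rRNA genes, the control region and the light-strand origin were counted, and the text names those with a median, the 5 highest counts of a class, or the most or fewest pairs around them, and tRNA genes that bound an arc or rank among those 5. TrnV was named after its value was seen. Members and lists were chosen with earlier results of these data known. SDs describe the spread of the values of 3 control libraries, 1 per animal, and include counting error. For inward pairs over 600 bp a small SD can lie below that error and then does not measure how alike the animals were. Alternatives covered size limits, copy rules, read 5′ ends, positions past the mtDNA length, leaving out each control and boundaries moved by 50 bp. Joining and placing were tested on simulated data, where 8 of 8 counts were recovered. Software was scipy 1.17.1, matplotlib 3.10.9, numpy 2.4.6 and pandas 2.3.3 under Python 3.11.15.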

Additional observations from a re-analysis of the deposited data

How the results depend on the processing

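Of 70 values recomputed under other settings, 57 moved by less than the spread between controls or the counting interval and 13 moved further; the causes were not tested. The control mean of joins from the minor to the major arc rose from 38.8% to 61.3% over 1000 bp and to 83.3% over 7000 and up to 14000 bp, where fewer and longer pairs were left, and was 41.8% by read 5′ ends, 41.0% with positions placed at the start and 41.8% with boundaries 50 bp earlier. The light-strand origin lay between the reads in 64.6% and 83.3% of control pairs at those sizes. Boundaries 50 bp later, chosen after seeing the data, put the Deletor joins at 82.2%. The minor arc held 47.3% of Deletor ends without pairs 60 bp apart. The control region's share of the Deletor ends of that class was 11.9% with every listed pair and 7.99% with copies within 5 bp merged, and the control share was 10.1% over all same-strand pairs of at most 600 bp. Allowing 1 read end, the longest Deletor gap was 311 bp. Leaving out each control moved none of 15 values beyond the spread. Dropping 1 of 3 values cannot move their mean by more than their SD, so this result was fixed in advance. With each control left out, joins ranged from 38.2% to 40.0%, the origin from 38.2% to 43.3% and minor-arc ends from 29.6% to 35.9%. The control region in pairs 60 bp apart ranged from 11.0% to 12.1%, and minor-arc ends of pairs of at most 20 bp from 36.7% to 40.4%. No paired analysis was possible, because there was 1 Deletor mouse and replicate numbers do not pair it with a control. The short control lists, with 5 to 15 inward pairs over 600 bp, limit every control share. They also leave the control SD of 2.10 for joins, against which moves of that mean were judged, far below counting error.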
